A study of Saccharomyces cerevisiae with 8 samples.

Results

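The genes described here make or import biotin in budding yeast, Saccharomyces cerevisiae. They are BIO2, BIO3 and BIO4, which encode enzymes of biotin synthesis, and BIO5 and VHT1, which encode transporters of a biotin precursor and of biotin. They were chosen by name, and the array measured all 5 of them, out of 5449 yeast genes in all. Total RNA was measured on 8 arrays, 4 from cultures that express Kir2.1 from the plasmid pRS416TEF-Kir2.1-HA, and 4 from cultures with the vector pRSGPD426. Kir2.1 is a mammalian channel that lets potassium pass more easily into the cell than out of it. Selective medium at 26 °C was used for every culture, and cells were taken in mid-exponential growth. Nothing in the labels gives the genotype of the host strain. Both groups have replicates 1 to 4, which the series calls biological. Since only the control arrays carry the mark of a re-analysis, plasmid backbone, that mark and Kir2.1 cannot be told apart.

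Biotin is a vitamin that a ligase attaches to a few carboxylases, where it carries carbon dioxide. The last steps of its synthesis run from 7-keto-8-aminopelargonic acid (KAPA), which Bio5 brings into the cell, to diaminopelargonic acid (Bio3), dethiobiotin (Bio4) and biotin (Bio2). The reference laboratory strain lacks the earlier steps and needs biotin or a precursor from the medium. Bio2 works in mitochondria and holds iron-sulfur clusters, one of which gives up the sulfur atom that goes into biotin. Vht1 carries finished biotin across the plasma membrane together with a proton, so it supplies the vitamin without iron. Yeast short of iron is known to lower BIO2 transcripts and to raise VHT1 through the iron regulator Aft1, and yeast short of biotin is known to raise VHT1 and BIO5 through the regulator Vhr1.

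Each level below is a log2 value, computed from the score that the authors standardized and set against the median gene on its array. A difference is the mean of the Kir2.1 arrays minus that of the control arrays on this scale. A level can be compared between arrays for 1 gene, but not between genes, because probe sets differ in brightness. Each of the 5 genes was read by 1 probe set that is not marked as shared with another transcript. All 5 lay above the background, the 95th percentile of the probe sets for Schizosaccharomyces pombe genes on the same array, on 8 of 8 arrays. The smallest distance to that background on any array was 2.81, for BIO4. BIO3 (YNR058W), BIO4 (YNR057C) and BIO5 (YNR056C) are neighbours on chromosome XIV, while BIO2 (YGR286C) and VHT1 (YGR065C) lie apart on chromosome VII.

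Arrays of the same group differed widely in their iron uptake genes, and these values are given beside the results. The iron uptake level of an array is the mean, over 16 genes of iron uptake, of the log2 level minus the mean of the 8 arrays. It was 1.50, -0.83, 1.67 and -1.15 in Kir2.1 replicates 1 to 4, and 1.23, -0.66, -1.03 and -0.74 in control replicates 1 to 4. Kir2.1 replicates 1 and 3 and control replicate 1 were thus high, with no array between 1.23 and -0.66. Kir2.1 replicate 4 and control replicate 3 had the lowest values of the 8. Between the groups, 16 of 16 iron uptake genes had a higher mean in Kir2.1 arrays, beside 58.7% of all genes, and 0 passed. All 16 were highest in Kir2.1 replicates 1 and 3 and control replicate 1, the arrays that they define as high. Their means thus share the uneven split of those arrays over the groups. FIT1, a cell wall mannoprotein gene of siderophore uptake, was at 0.40 (SE 0.30) and FRE5 at 0.59 (SE 0.45). The ferric reductase genes FRE3 and FRE2 were at 0.58 (SE 0.53) and 1.09 (SE 1.01). FRE5, FRE3 and FRE2 were above background on 0, 4 and 3 arrays. Because the arrays fall into separate clusters on this measure, no correlation with it was computed. It served as a covariate in an alternative fit, to which the same limit applies. The selection marker gene URA3 differed by 0.09 (SE 0.16, limma adjusted p = 0.852) between the groups. The Kir2.1 transcript was not analysed here.

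None of the 5 biotin genes passed as different between Kir2.1 and control cultures, and the groups overlapped for each of them. By limma, 0 of 5 passed at an adjusted p under 0.05, beside 0% of all genes tested, and 0 of 5 had an unadjusted p under 0.05, beside 8.35% of all genes. Groups did not overlap for 0 of 5 members, beside 6.59% of all genes. The means were higher in Kir2.1 arrays for BIO3, BIO4 and VHT1, 3 of 5 members beside 58.7% of all genes, and lower for BIO2 and BIO5, but without centring of the arrays BIO3 and VHT1 were at -0.0066 and -0.038. The median difference over the 5 genes was 0.09, against 0.03 over all genes. The SD inside a group ran from 0.25, for VHT1 in control arrays, to 0.65, for BIO5 in control arrays. The range over the 8 arrays ran from 0.73 for VHT1 to 1.45 for BIO5, and the median range over all genes was 0.40.

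**Figure D1:**
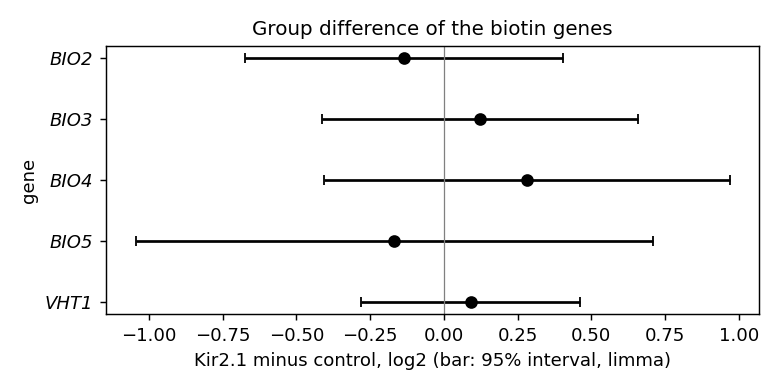
Difference of each biotin gene between Kir2.1 and control arrays on the log2 scale (x axis), with the 95% interval from limma as a bar. All 5 intervals hold 0, from the narrowest for VHT1 (-0.28 to 0.46) to the widest for BIO5 (-1.04 to 0.71).

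BIO2 encodes biotin synthase, the iron-sulfur enzyme of the last step. Its level was 2.25, 2.98, 2.01 and 2.70 in Kir2.1 replicates 1 to 4, against 2.31, 2.92, 2.36 and 2.90 in control replicates 1 to 4. Low and high arrays occurred in both groups, and both the lowest and the highest level came from Kir2.1 arrays. The mean was 2.48 ± 0.44 in Kir2.1 arrays and 2.62 ± 0.33 in control arrays (SD, n = 4 each), a difference of -0.14 (SE 0.24, limma adjusted p = 0.852). Its 95% interval ran from -0.67 to 0.40, so a fall to 0.627-fold or a rise to 1.32-fold would lie inside it. With the iron uptake level of the array as a covariate the difference was 0.0056, and over the 5 arrays with low iron uptake genes alone it was 0.11. It was larger in size without centring (-0.26), after quantile normalization (-0.24) and with array weights (-0.49, 95% interval -0.93 to -0.05, limma adjusted p = 0.0788), and it was -0.36 array SDs on the deposited scores. The fit with array weights called 1735 genes over the whole table, against 0 in the main fit. Its weights ran from 0.23 for Kir2.1 replicate 2 to 4.20 for control replicate 4.

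By array, BIO2 was lowest in Kir2.1 replicate 3, then Kir2.1 replicate 1, then control replicate 1, the 3 arrays with high iron uptake genes. The margin was narrow, as control replicate 3, with low iron uptake genes, stood only 0.05 above control replicate 1. This order, the 3 high-iron-uptake arrays below the other 5, was found in 18.4% of all genes tested, so it is not rare on these arrays. The other 4 arrays reached 2.70 to 2.98. Between its lowest and highest array BIO2 changed 1.96-fold.

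BIO3 encodes the aminotransferase that makes diaminopelargonic acid, with S-adenosylmethionine as the amino donor. Its level was 3.17, 3.27, 3.02 and 2.46 in Kir2.1 replicates 1 to 4, against 2.84, 3.16, 2.28 and 3.14 in control replicates 1 to 4. In each group a single array was low, Kir2.1 replicate 4 and control replicate 3, and the other 6 lay between 2.84 and 3.27. The mean was 2.98 ± 0.36 in Kir2.1 arrays and 2.86 ± 0.41 in control arrays (SD, n = 4 each), and the difference was 0.12 (SE 0.23, limma adjusted p = 0.861). Without control replicate 3 the difference was -0.07, so the sign rests on this array as well as on the centring.

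BIO4 encodes dethiobiotin synthetase, the enzyme between Bio3 and Bio2, and is the next gene to BIO3. Its level was 2.36, 2.36, 2.29 and 1.65 in Kir2.1 replicates 1 to 4, against 2.12, 2.25, 0.96 and 2.19 in control replicates 1 to 4. The same 2 arrays were low, control replicate 3 most of all, while the other 6 stayed within 2.12 to 2.36. The difference was 0.28 (SE 0.30, limma adjusted p = 0.774) and was 0.15 without centring and -0.03 without control replicate 3. BIO4 varied 2.64-fold between its lowest and highest array.

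BIO5 encodes the plasma membrane transporter of KAPA, the precursor that enters at Bio3. Its level was 2.08, 3.08, 1.75 and 1.73 in Kir2.1 replicates 1 to 4, against 1.93, 2.87, 1.63 and 2.89 in control replicates 1 to 4. Kir2.1 replicate 2 and control replicates 2 and 4 stood at 2.87 or above, and the other 5 arrays at 2.08 or below, with none between. The 5 low arrays were the 3 with high iron uptake genes and the 2 with the lowest iron uptake level. The difference between the groups was -0.17 (SE 0.38, limma adjusted p = 0.885), with 2.16 ± 0.63 in Kir2.1 arrays and 2.33 ± 0.65 in control arrays (SD, n = 4 each). The difference was -0.30 without centring, -0.54 with array weights (limma adjusted p = 0.281) and -0.47 without Kir2.1 replicate 2, and close to 0 without control replicate 2 or 4 (0.012 and 0.019). The range over the arrays, 2.73-fold, was wider than that of 98.0% of all genes.

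VHT1 encodes the high-affinity biotin transporter. Its level was 3.22, 3.49, 3.31 and 2.84 in Kir2.1 replicates 1 to 4, against 3.17, 3.23, 2.77 and 3.33 in control replicates 1 to 4. The same 2 arrays as for BIO3 and BIO4 were the lowest, and the other 6 lay within 3.17 to 3.49. The 3 arrays with high iron uptake genes, at 3.17 to 3.31, did not stand above Kir2.1 replicate 2 and control replicates 2 and 4, at 3.23 to 3.49. The group difference was 0.09 (SE 0.16, limma adjusted p = 0.855). It was -0.028 after quantile normalization and also -0.028 without control replicate 3. VHT1 had the smallest range of the 5 genes, 1.65-fold.

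**Figure D2:**
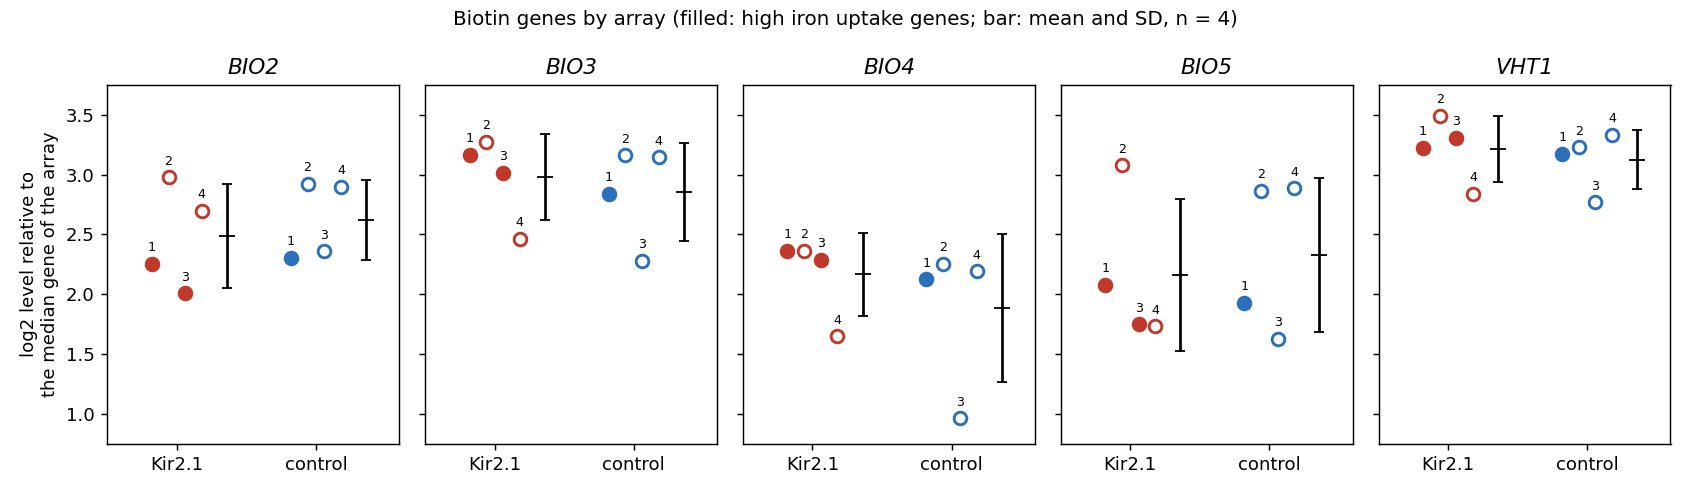
Log2 level of each biotin gene, set against the median gene of its array (y axis), in the 4 Kir2.1 and 4 control arrays, numbered by replicate. Filled points are the 3 arrays with high iron uptake genes and bars are the mean and SD (n = 4). Heights compare arrays within a panel, not genes. Kir2.1 replicate 4 and control replicate 3 were the lowest arrays for BIO3, BIO4, BIO5 and VHT1, and the 3 filled points the lowest for BIO2.

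Biotin genes thus followed the arrays in a pattern that crossed the groups. Among the 5 arrays with low iron uptake genes, Kir2.1 replicate 4 and control replicate 3 were the lowest for 5 of 5 members, an order found in 10.3% of all genes tested. Over all 8 arrays the same pair was the lowest for 4 of 5 members, BIO2 being the exception, against 5.34% of all genes. This order was picked out after the values were seen, and the first count stayed at 5 of 5 under 6 other scalings of the arrays, where the share of all genes was 2.18% without centring and 9.38% to 10.9% in the other 5. The second count was 3 of 5 without centring of the arrays, where BIO5 left it, and 4 of 5 in the other 5 scalings. The same pair had the lowest iron uptake level. For BIO5 the second count rests on a narrow margin, 1.73 in Kir2.1 replicate 4 against 1.75 in Kir2.1 replicate 3.

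**Figure D3:**
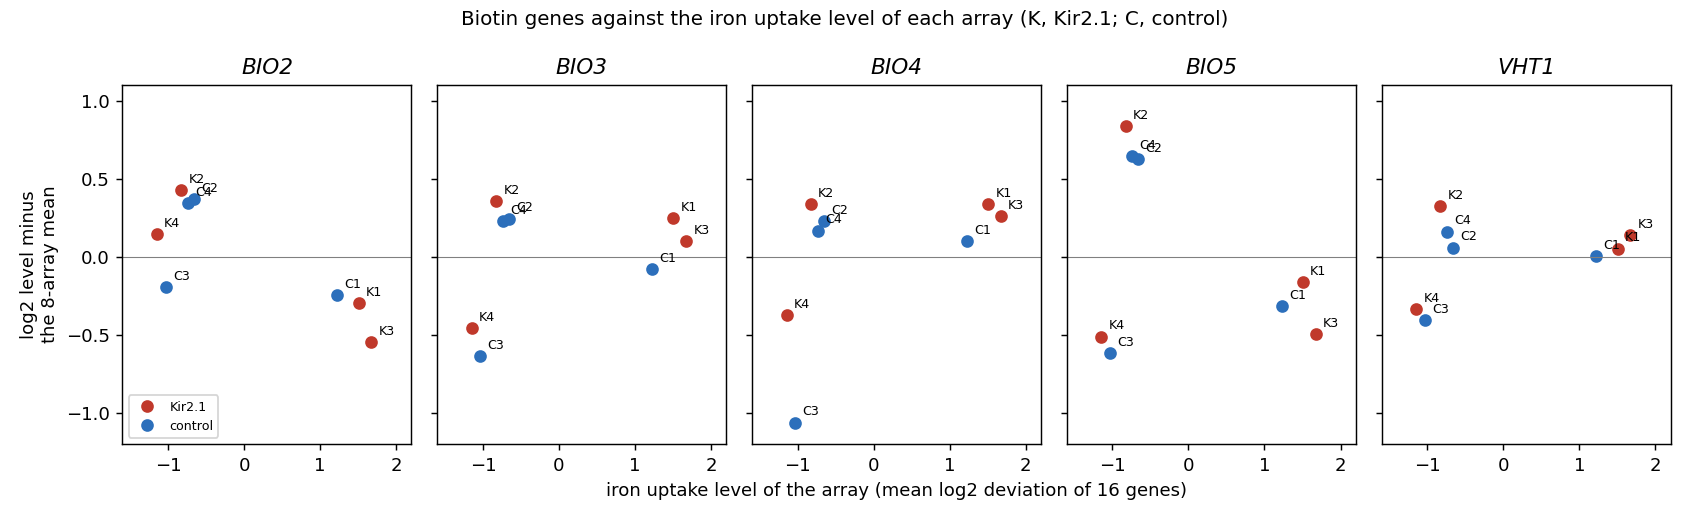
Log2 level of each biotin gene minus its mean over the 8 arrays (y axis) against the iron uptake level of the array (x axis, mean log2 deviation of 16 genes). K and C mark Kir2.1 and control arrays with their replicate number. BIO2 and BIO5 were low in the 3 arrays on the right, whereas BIO3, BIO4 and VHT1 were lowest in K4 and C3 on the far left, where BIO5 was low too.

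VHT1 minus BIO2, an uptake gene against a synthesis gene, was read within each array, where no centring moves it. It was 0.97, 0.52, 1.30 and 0.14 in Kir2.1 replicates 1 to 4, and 0.87, 0.31, 0.41 and 0.44 in control replicates 1 to 4. These values can be compared between arrays, but their own size has no meaning, since 2 probe sets enter them. The 3 arrays with high iron uptake genes had the 3 highest values, from 0.87 to 1.30, and the other 5 arrays ranged from 0.14 to 0.52. After quantile normalization the lowest of the 3 was 0.88 and the highest of the 5 was 0.50. The groups overlapped, with a mean of 0.73 ± 0.51 in Kir2.1 arrays and 0.51 ± 0.25 in control arrays (SD, n = 4 each). BIO3 minus BIO2, both synthesis genes, also set the 3 arrays with high iron uptake genes apart, at 0.53 to 1.01 against -0.24 to 0.29. VHT1 minus BIO3, again uptake against synthesis, did not, at 0.06 to 0.34 against 0.07 to 0.49. Against Kir2.1 replicate 2 and control replicates 2 and 4, the order of VHT1 minus BIO2 went with a lower BIO2. The order of BIO2 itself was found in 18.4% of all genes. VHT1 levels in the 3 arrays, 3.17 to 3.31, overlapped the 3.23 to 3.49 of Kir2.1 replicate 2 and control replicates 2 and 4. Kir2.1 replicate 4 and control replicate 3 had a lower VHT1, at 2.84 and 2.77. In control replicate 3 BIO2 was 2.36, close to the 2.31 of control replicate 1, so there the order rested mainly on VHT1.

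**Figure D4:**
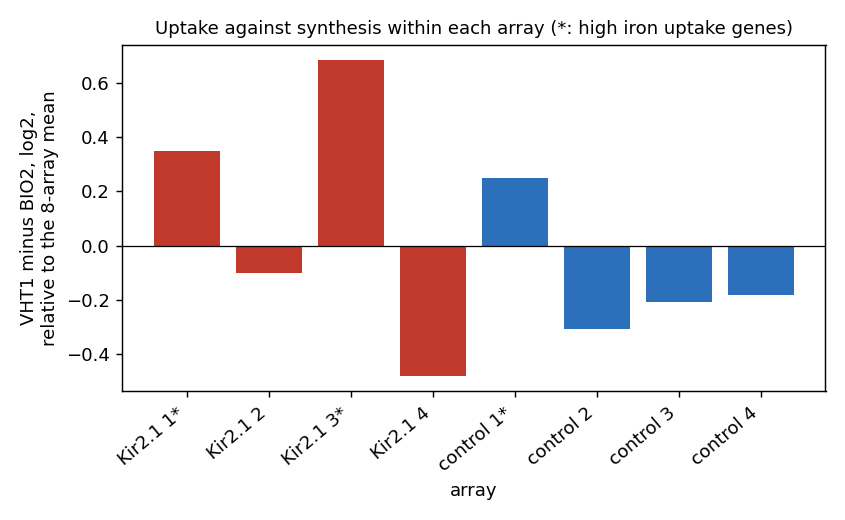
VHT1 minus BIO2 on the log2 scale within each array, relative to the mean of the 8 arrays (y axis), in the 4 Kir2.1 (left) and 4 control (right) arrays. Asterisks mark the arrays with high iron uptake genes. The 3 marked arrays are the only ones above 0, at 0.35, 0.68 and 0.25.

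The 5 genes resembled each other to different degrees over the 8 arrays. These correlations describe 8 arrays that share large differences in iron genes, so they are given without a p. BIO3 and BIO4 had a Pearson r of 0.94 (Spearman rho 0.90), and 0.76 without the 2 arrays farthest from the median of BIO3, Kir2.1 replicate 4 and control replicate 3. BIO3 and VHT1 had an r of 0.95 (rho 0.79), and 0.66 without those arrays. For BIO4 and VHT1 r was 0.90 (rho 0.69), and 0.51 without them, so much of the likeness of these 3 genes rests on the 2 low arrays. BIO4 and BIO5, although neighbours, had an r of 0.57 (rho 0.64), and 0.17 without the same arrays. BIO3 and BIO5 had an r of 0.76 (rho 0.88), which stayed at 0.74 without those arrays. For BIO5 and VHT1 r was 0.72 (rho 0.86), and 0.58 without Kir2.1 replicate 4 and control replicate 3. BIO2 and BIO5 had an r of 0.81 (rho 0.60), and 0.74 without Kir2.1 replicates 2 and 3, the arrays farthest from the median of BIO2. BIO2 was least like BIO4, with an r of 0.14 (rho -0.05), and had an r of 0.24 (rho 0.38) with VHT1 and 0.29 (rho 0.36) with BIO3. Without Kir2.1 replicate 4 and control replicate 3, the r of BIO2 was 0.63 with BIO3, 0.48 with VHT1, 0.99 with BIO5 and 0.03 with BIO4, so its low likeness to BIO3 and VHT1 also rests on those 2 arrays.

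Genes beside the BIO3, BIO4 and BIO5 cluster did not show its array pattern. HOL1, a cation and polyamine transporter gene next to BIO5, stood at 0.80, 0.64, 0.67 and 0.87 in Kir2.1 replicates 1 to 4, against 0.53, 0.51, 0.52 and 0.57 in control replicates 1 to 4. Its groups did not overlap, but the difference of 0.21 (SE 0.06) did not pass over all genes (limma adjusted p = 0.551). MNT4, a mannosyltransferase gene next to BIO3, ranged from -1.64 to -1.36 in Kir2.1 arrays and from -1.74 to -1.46 in control arrays. For neither were Kir2.1 replicate 4 and control replicate 3 the lowest arrays. Next to BIO2, the ribosome-associated chaperone gene ZUO1 was lowest in the 3 arrays with high iron uptake genes, as BIO2 was. It stood there at 2.54 to 2.70, against 2.89 to 3.06 in the others, an order found in 18.4% of all genes.

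Over the 2020 genes above background on at least 4 arrays and with an SD over the arrays of at least 0.15, BIO2 had a common pattern and the other 4 members rare ones. An r of at least 0.8 was found with BIO2 in 12.4% of these genes, and with BIO3, BIO4, BIO5 and VHT1 in 0.347%, 0.495%, 0.297% and 0.495%. The 5 genes most like BIO2 were SSA2, an Hsp70 chaperone gene (r 0.93, rho 1), YAH1, the ferredoxin of iron-sulfur assembly (r 0.93), the mitochondrial ribosomal protein genes MRPL31 (r 0.92) and RSM19 (r 0.91), and MNL1 (r 0.92). YAH1 stood at 1.41, 2.60, 1.36 and 1.86 in Kir2.1 replicates 1 to 4, against 1.52, 2.36, 1.95 and 2.26 in control replicates 1 to 4. Like BIO2, it was lowest in the 3 arrays with high iron uptake genes and lower in Kir2.1 replicate 4 and control replicate 3 than in the remaining 3. The most opposite genes were PHD1, RPI1 and THI21, with r from -0.93 to -0.92.

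BPL1, the ligase that attaches biotin to its target proteins, was the gene most like BIO5 (r 0.94, rho 0.93, and 0.89 without the 2 arrays farthest from the median of BIO5). BPL1 stood at 0.27, 0.59, 0.03 and -0.16 in Kir2.1 replicates 1 to 4, against -0.04, 0.43, -0.05 and 0.38 in control replicates 1 to 4. As for BIO5, the arrays on top were Kir2.1 replicate 2 and control replicates 2 and 4. The next most like BIO5 were YBR238C (r 0.88), the glutamine synthetase gene GLN1 (r 0.86), BIO2 itself and HMS2 (r 0.81), and the most opposite were ALD6, PDC5 and GCY1, with r from -0.87 to -0.82.

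BIO3, BIO4 and VHT1 had each other among their 5 most alike genes, together with DMA2, AAD10 and ADH4. DMA2, a ubiquitin ligase gene, had an r of 0.98 with BIO3, and 0.93 without the 2 low arrays. It stood at 1.05, 1.01, 0.89 and 0.24 in Kir2.1 replicates 1 to 4, against 0.73, 0.96, 0.29 and 0.96 in control replicates 1 to 4. AAD10, of the aryl-alcohol dehydrogenase family whose close copies may share signal, stood at 0.82 in Kir2.1 replicate 4 and 0.61 in control replicate 3, and at 1.85 to 2.18 in the other 6. Its r with VHT1 was 0.92 over all 8 arrays but 0.18 without the 2 low ones. ADH4, an alcohol dehydrogenase gene, had an r of 0.90 with BIO3 and 0.22 without them. HMS1, a transcription factor gene, was the most opposite for these 3 members, with r from -0.88 to -0.84, followed by CYB2 and FRK1 for BIO3, UPS2 and TPP1 for BIO4, and CYB2 and TPP1 for VHT1, with r from -0.80 to -0.68.

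Downstream of the members, the genes of biotin-carrying proteins had group differences of at most 0.10 in size. Of the ligase and biotin-carrying list, 6 of 7 genes were measured, 4 with a higher and 2 with a lower mean in Kir2.1 arrays, and 0 passed the test. Their median difference was 0.02, against 0.03 over all genes. ACC1, the cytosolic acetyl-CoA carboxylase, ranged from 3.44 to 3.74 in Kir2.1 arrays and from 3.45 to 3.60 in control arrays, with a difference of 0.10 (SE 0.08). The pyruvate carboxylase genes PYC1 and PYC2 differed by 0.04 (SE 0.10) and -0.0058 (SE 0.10), and HFA1, the mitochondrial acetyl-CoA carboxylase, by 0.04 (SE 0.07). ARC1, a cofactor of tRNA synthetases that carries biotin in yeast, differed by -0.09 (SE 0.07), and BPL1 by 0.0039 (SE 0.18). PYC2 and ARC1, 2 of 6, were lowest in the 3 arrays with high iron uptake genes, beside 18.4% of all genes.

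Of the regulator list, 6 of 6 genes were measured and 0 passed. VHR1, the activator of VHT1 and BIO5 under low biotin, stood at 0.92, 0.99, 0.78 and 1.07 in Kir2.1 replicates 1 to 4, against 0.95, 0.87, 0.73 and 0.85 in control replicates 1 to 4, a difference of 0.09 (SE 0.08). VHR1 was high in Kir2.1 replicate 4 and low in control replicate 3, so it did not follow the pair of arrays with low VHT1. Its relative VHR2 differed by -0.06 (SE 0.11). AFT1, the iron regulator, stood at 0.04, -0.80, 0.28 and -1.07 in Kir2.1 replicates 1 to 4, against 0.17, -0.52, -0.80 and -0.76 in control replicates 1 to 4. TIS11 (also called CTH2), which destabilizes transcripts of iron-using proteins, stood at 2.47, -1.76, 2.45 and -2.44 in Kir2.1 replicates 1 to 4, against 2.19, -0.69, -2.11 and -1.02 in control replicates 1 to 4. Both were highest in the 3 arrays where BIO2 was lowest, and so were AFT2 and CTH1. This order thus held for 4 of 6 regulators, beside 16.7% of all genes. The count includes AFT2, which even in Kir2.1 replicate 3 lay within the background (-1.75 against -1.55), so its order is not secure. CTH1 had a range of only 0.21 over the 8 arrays. AFT1 was lowest in Kir2.1 replicate 4, whereas TIS11 lay within the background in Kir2.1 replicates 2 and 4 and control replicate 3, so its values there have no order. Their differences between the groups were 0.09 (SE 0.33) and 0.59 (SE 1.36). AFT2 differed by 0.04 (SE 0.10) and CTH1 by -0.01 (SE 0.07), and AFT2 was above background on 2 arrays only.

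The genes that build iron-sulfur clusters were set beside BIO2 because its product needs them. All 5 late-acting assembly genes, ISA1, ISA2, IBA57, NFU1 and GRX5, which bring clusters to enzymes such as Bio2 and lipoate synthase, were lowest in the 3 arrays with high iron uptake genes. That order held for 18.4% of all genes. IBA57 stood at -0.70, 0.23, -0.73 and -0.28 in Kir2.1 replicates 1 to 4, against -0.31, 0.29, 0.02 and 0.15 in control replicates 1 to 4, and its difference was -0.41 (SE 0.22, limma adjusted p = 0.683). GRX5 differed by -0.18 (SE 0.13), ISA2 by -0.07 (SE 0.06) and ISA1 by -0.28 (SE 0.25), and 0 of 5 passed. Among 11 core assembly genes 4 showed this order, and 0 passed between the groups. ISU1, the scaffold on which clusters form, differed by 0.52 (SE 0.19, limma adjusted p = 0.568), ATM1 by -0.19 (SE 0.09), NFS1 by 0.12 (SE 0.06) and the frataxin gene YFH1 by -0.33 (SE 0.22).

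Most other iron-sulfur enzymes were also low in the arrays with high iron uptake genes. In 9 of 10 genes the 3 arrays were the lowest, beside 18.4% of all genes, LYS4 being the exception. Between the groups 0 of 10 passed. LEU1, an enzyme of leucine synthesis, stood at 1.86, 2.95, 1.69 and 2.56 in Kir2.1 replicates 1 to 4, against 2.02, 2.87, 2.82 and 2.86 in control replicates 1 to 4. LIP5, lipoate synthase, which like Bio2 inserts sulfur with iron-sulfur clusters, stood at -0.75, -0.06, -1.12 and 0.09 in Kir2.1 replicates 1 to 4, against -0.70, -0.14, -0.09 and -0.07 in control replicates 1 to 4. LIP5 was highest in Kir2.1 replicate 4 and in control replicate 3 lay between control replicates 2 and 4, whereas BIO2 was lower in these 2 arrays than in the remaining 3 with low iron uptake genes. The group differences of LEU1, GLT1, ACO1 and LIP5 were -0.38 (SE 0.31), -0.32 (SE 0.33), -0.25 (SE 0.31) and -0.21 (SE 0.28). Of the lipoate list, 4 of 4 genes were measured and 0 passed, with LIP2 at -0.26 (SE 0.14), AIM22 at -0.14 (SE 0.12) and GCV3 at 0.03 (SE 0.06).

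**Figure D5:**
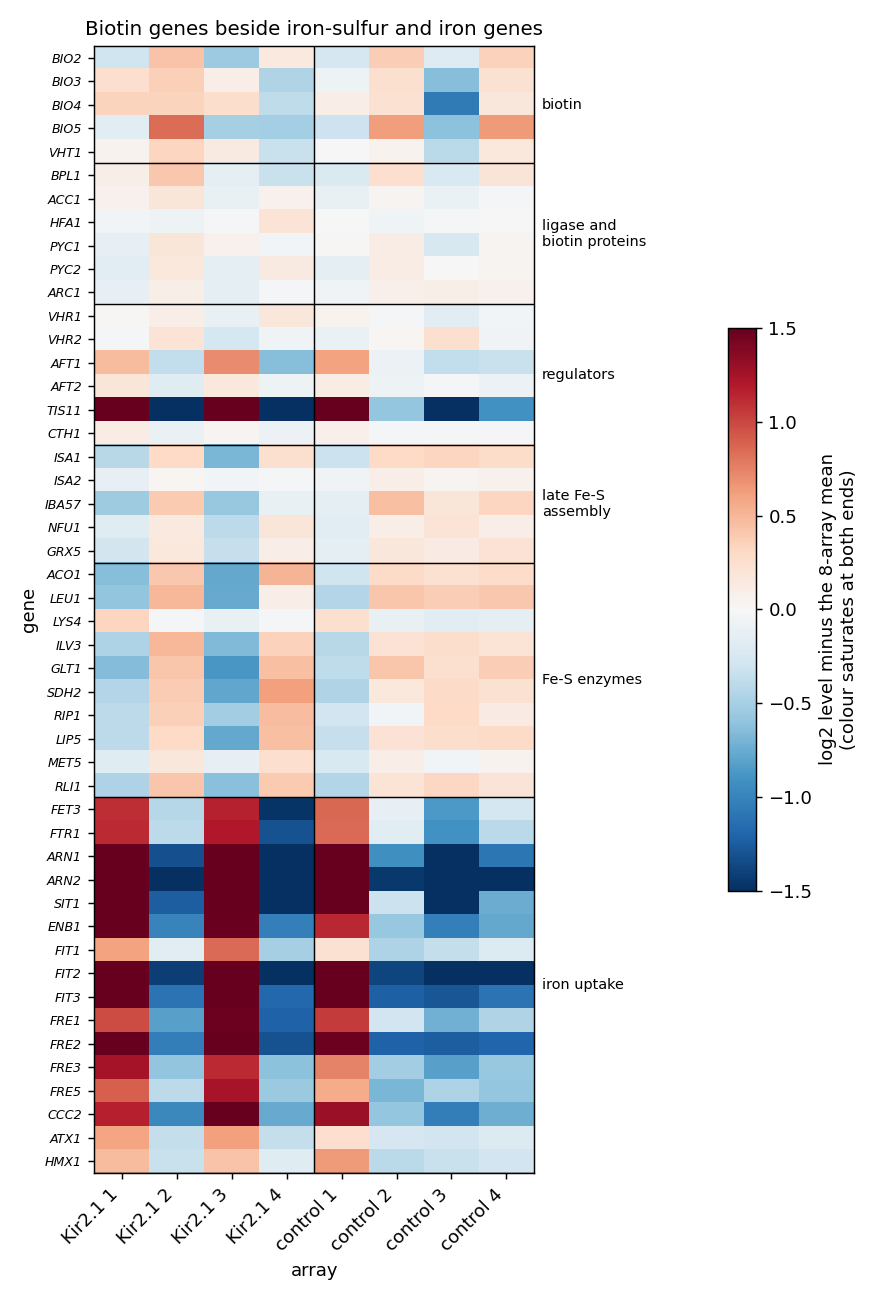
Log2 level minus the mean over the 8 arrays (colour) for all measured genes of the biotin, biotin-carrying, regulator, late iron-sulfur assembly, iron-sulfur enzyme and iron uptake lists (rows), in the 4 Kir2.1 and 4 control arrays (columns). Iron-sulfur enzymes other than LYS4 were low in Kir2.1 replicates 1 and 3 and control replicate 1, as BIO2 and BIO5 were. BIO3, BIO4, BIO5 and VHT1 were low in Kir2.1 replicate 4 and control replicate 3.

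The supply of S-adenosylmethionine, the amino donor of Bio3, was read from 3 genes, all with a higher mean in Kir2.1 arrays, as 58.7% of all genes had. SAM1, a synthetase gene, stood at 3.72, 3.78, 3.72 and 3.74 in Kir2.1 replicates 1 to 4, against 3.50, 3.62, 3.57 and 3.62 in control replicates 1 to 4. Its groups did not overlap, but the difference of 0.16 (SE 0.05) did not pass over all genes (limma adjusted p = 0.551). PET8, the mitochondrial carrier of S-adenosylmethionine, differed by 0.27 (SE 0.11, limma adjusted p = 0.586), and SAM2 by 0.13 (SE 0.09). PET8 was highest in Kir2.1 replicates 1 and 3 and control replicate 1, the arrays with high iron uptake genes. It stood there at 0.90 to 1.13, against 0.56 to 0.87 in the others. This order held for 1 of 3 genes, beside 16.7% of all genes.

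Among other vitamin transporters, 5 of 6 genes had a higher mean in Kir2.1 arrays, beside 58.7% of all genes, and 0 passed. The pyridoxine transporter gene TPN1 differed by 0.15 (SE 0.08), the thiamine transporter gene THI7 by 0.21 (SE 0.19) and the pantothenate transporter gene FEN2 by 0.05 (SE 0.05). THI72, of the thiamine transporter family, differed by 0.08 (SE 0.07) but was above background on 0 arrays. TNA1, the nicotinic acid transporter gene, chosen here after its values were seen, stood at 3.02, 2.52, 2.87 and 1.996 in Kir2.1 replicates 1 to 4, against 2.72, 2.51, 2.23 and 2.51 in control replicates 1 to 4. It shared the 2 lowest arrays with VHT1 but, unlike VHT1, was highest in the 3 arrays with high iron uptake genes. TPN1, THI7 and NRT1 had this last order too, so it held for 4 of 6 vitamin transporters, beside 16.7% of all genes. Among the measured relatives of VHT1 it held for TNA1 and THI73, 2 of 6. Among permeases related to VHT1, 6 of 7 genes were measured, 6 had a higher mean in Kir2.1 arrays, again beside 58.7% of all genes, and 0 passed, with YCT1 at 0.31 (SE 0.18), THI73 at 0.61 (SE 0.52) and DAL5 at 0.06 (SE 0.08).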

How the data were processed

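The authors deposited 1 standardized score per probe set and array, with a mean of 0 and an SD of 1 on each of the 8 arrays over 10715 probe sets. Per the labels' protocols, hot phenol served for extraction and a 3'IVT kit for the biotin label. How probes were summarized and background was removed is not stated in the labels. For a log2 scale, which the design assumed, zero was set on each array at 0.005 below its lowest score, and arrays were then centred on the median of 5449 genes, with the brightest probe set standing for a gene. Before centring, the array medians lay 0.13 lower in Kir2.1 arrays (-0.13), which is taken out of every level. Probe sets were named through the platform annotation and the RefSeq table of assembly R64. Of 73 other genes in the 11 lists beside the members, 71 were measured. No value column was left unused (0).

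The two-sided group comparison used lmFit and eBayes of limma 3.58.1 (R 4.3.3) with Benjamini-Hochberg adjustment over all genes, a procedure tested on simulated data. The number of arrays limits the precision, and the median standard error over all genes was 0.0912. Members and lists were chosen with earlier results of these data known. Named genes are all members, all regulators and biotin-carrying proteins, up to 4 genes per other list by smallest p, and the 5 most and 3 least alike genes per member. TNA1 and the chromosomal neighbours were added later. Alternatives were other zeros (0.001 and 0.02), centrings, quantile normalization, the deposited scores, a dim filter, probe set means, trend, array weights, a replicate block, the iron level and omissions of arrays.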

Additional observations from a re-analysis of the deposited data

Results flagged for a closer look

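BIO4 stood apart from the other 3 arrays of its group in Kir2.1 replicate 4 (1.65) and in control replicate 3 (0.96), in that its gap to the next array was 0.893 and 0.899 of the range of the group, above Dixon's critical value for 4 samples. The iron uptake level of control replicate 1 (1.23) was also far above the other controls, with a gap of 0.834 of their range. Chance alone flags about 5% of groups of this size.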

How the results depend on the processing

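None of the 5 biotin genes passed in any of 21 alternatives, and the smallest adjusted p was 0.0788, for BIO2 with array weights, where its difference was -0.49 and that of BIO5 -0.54. The sign of the differences was not stable. BIO2 was 0.0056 with the iron uptake level as a covariate and 0.11 over the 5 arrays with low iron uptake genes. BIO3 and VHT1 were -0.0066 and -0.038 without centring and -0.0076 and -0.062 on the deposited scores, and VHT1 was -0.028 after quantile normalization. Over the 8 omissions of 1 array, differences ran from -0.30 to 0.024 for BIO2, -0.069 to 0.30 for BIO3, -0.025 to 0.45 for BIO4, -0.47 to 0.019 for BIO5 and -0.028 to 0.22 for VHT1. The arrays whose omission turned a sign were Kir2.1 replicate 3 for BIO2, control replicate 3 for BIO3, BIO4 and VHT1, control replicates 2 and 4 for BIO5 (0.012 and 0.019), and Kir2.1 replicate 2 for VHT1 (-0.0017). Over all genes, 0 were called by limma (455 at an unadjusted p under 0.05), 0 in each of the 8 single omissions, 1 on the deposited scores and 1735 with array weights, and the causes were not tested. The replicate block cannot change a difference, since each number has 1 array per group, so BIO2 stayed at -0.14 (limma adjusted p = 0.570). It lowered the SE from 0.24 to 0.09 for BIO2 and from 0.38 to 0.24 for BIO5, and called 0 genes. Deviations of same-numbered arrays correlated at 0.81, 0.69, -0.66 and 0.39. Kir2.1 replicate 3 and control replicate 1, both with high iron uptake genes, correlated at 0.81. Because the iron differences run across the numbers, these values cannot tell whether the numbers pair the arrays. BIO2 stayed lowest in the 3 arrays with high iron uptake genes in 6 other scalings, a choice made after seeing the data, by 0.03 to 0.05 on log2 scales.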
